A study of Mus musculus with 6 samples.

Results

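Ventral and GABAergic lineage genes are active in progenitors of the ventral forebrain and in the GABAergic neurons that arise from them. Here 8 of these genes were examined in cortical cells with reduced Ybx1. They were the distal-less homeobox genes Dlx1, Dlx2, Dlx5 and Dlx6, the homeobox genes Nkx2-1 and Lhx6, and the glutamate decarboxylase genes Gad1 and Gad2. The genes were chosen by symbol from 17920 genes listed in the deposited table, all 8 were found, and all 8 were among the 13669 genes that passed the filter on low counts. RNA was sequenced from 6 libraries of cells from the mouse cortex at E13.5 (the embryonic day). The 3 control libraries have the genotype WT in the labels, and the 3 knockdown (KD) libraries carry reduced Ybx1, which encodes an RNA-binding protein that recognises 5-methylcytosine in mRNA. By the methods of the study, these were dissociated cortical cells grown in culture, infected with a lentivirus, which integrates into the host genome, bearing a short hairpin RNA against Ybx1 or a control hairpin in the pLKO.1-Puro vector, and then selected with puromycin, an antibiotic that kills uninfected cells. All 6 libraries therefore share the virus and the selection. The series text instead speaks of cortex with a deletion, and the strain and the hairpin used for a given library are not given in the sources used here.

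Most interneurons of the cortex are not born in the cortex itself. They arise in the ganglionic eminences of the ventral forebrain (the subpallium) and migrate into the cortex, whereas the excitatory neurons are born locally in the dorsal forebrain (the pallium). DLX proteins are homeodomain transcription factors of subpallial progenitors and of the young GABAergic neurons that leave them, and NKX2-1 specifies the medial ganglionic eminence, where it switches on Lhx6. GAD1 and GAD2 are the enzymes that make the inhibitory transmitter GABA from glutamate.

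The DLX genes lie in pairs whose members point towards each other. On GRCm38, Dlx1 spans chromosome 2 from 71528113 to 71533981 on the plus strand, and Dlx2 spans 71543408 to 71546754 on the minus strand, with 9.43 kb between them. Dlx6 (chromosome 6, 6863334 to 6868568, plus strand) and Dlx5 (6877805 to 6882085, minus strand) are laid out the same way with a gap of 9.24 kb. Dlx1, Dlx2 and Dlx5 have up to 3 exons and Dlx6 up to 4 in the GENCODE annotation. Gad1 (70553072 to 70602014, plus strand), Gad2 (22622205 to 22693874, plus strand) and Lhx6 (36081953 to 36105408, minus strand) are also on chromosome 2, and Nkx2-1 is on chromosome 12 (56531958 to 56536908, minus strand). The sequence before the start of 2 of these genes is shown because Dlx2 was the one member whose change passed the threshold in the principal test, and Lhx6 stands for the members that did not. Both are the 250 bases upstream of a RefSeq transcript start on GRCm38.p6, and neither window overlaps an annotated exon of its gene.
Dlx2, chr2:71546755-71547004, minus strand: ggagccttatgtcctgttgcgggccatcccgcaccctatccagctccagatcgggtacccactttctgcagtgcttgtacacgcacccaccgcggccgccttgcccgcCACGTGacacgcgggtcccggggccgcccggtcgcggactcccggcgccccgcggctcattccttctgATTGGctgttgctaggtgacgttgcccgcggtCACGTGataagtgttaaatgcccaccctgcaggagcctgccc
Lhx6, chr2:36105409-36105658, minus strand: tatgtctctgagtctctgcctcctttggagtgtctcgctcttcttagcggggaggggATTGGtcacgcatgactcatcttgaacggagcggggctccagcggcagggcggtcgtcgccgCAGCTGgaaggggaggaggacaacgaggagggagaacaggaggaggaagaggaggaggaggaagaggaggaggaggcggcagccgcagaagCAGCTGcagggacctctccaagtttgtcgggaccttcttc

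Capitals mark the motifs searched on both strands. The homeodomain core TAATTA, which a DLX protein can bind, was in 0 of the 8 windows available for 6 of the 8 members, against 4.84% of 32851 windows of all genes. Of the member windows, 3 belong to Lhx6. The Dlx1 window lay wholly in annotated exon of its gene (250 bases). Those of Gad1, Gad2 and the second of Lhx6 had 87, 122 and 14 such bases. Sequence just after the start of that second Lhx6 window was not found in the gene's GENCODE transcripts. The E-box CAGCTG occurred 2 times in the Lhx6 window, with first bases 131 and 40 bases before the start, and in no other member window, against 13.0% of all windows. A further 2 motifs were searched after these sequences had been read. The letters ATTGG, the reverse complement of the CCAAT box and the core of the Y-box after which Ybx1 was named, began 74 bases before the Dlx2 start and 193 bases before the Lhx6 start, and stood in 4 of the 8 member windows (also in that of Gad2 and in the third of the 3 Lhx6 windows, of which the first is shown) and in 33.9% of all windows. The E-box CACGTG occurred 2 times in the Dlx2 window, at 142 and 42 bases before the start, and in 6.02% of all windows. A match describes the letters only, and a window without a match says nothing about a factor's binding elsewhere.

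The targeted gene was lower in every KD library. Ybx1 had normalised counts (CPM, scaled to 1000000 counts a library) of 618, 615 and 653 in WT and of 98.3, 92.2 and 159 in KD, in the order of replicates 1, 2 and 3, an order kept throughout (log2 fold change -2.43, SE 0.18, adjusted p = 1.8e-04, from edgeR's quasi-likelihood F-test, adjusted by Benjamini-Hochberg over all genes tested). Library totals lay between 16294635 and 16497505 estimated counts. Pallial genes of the labelled tissue were well counted, with up to 5009 counts in a library, while no listed gene exceeded 18 counts for microglia, 33 for endothelium or 2 for erythroid cells. The choroid plexus marker Ttr had at most 0.0617 CPM, but Otx2 of the same list reached 125 counts in a library. Mesenchymal and mural genes reached 164 counts. Astrocyte and oligodendrocyte lineage genes were well counted too, with up to 6690 and 3550 counts. In this test 12% of all genes tested were higher in KD and 11.9% were lower. Libraries with the same replicate number deviated together from their group means (correlations over genes of 0.35, 0.32 and 0.18 against -0.28 to -0.02 for unlike numbers). With this centring, values for unlike numbers are negative on average once those for like numbers are positive, so they add no separate evidence. A fit with the number as a block was therefore run as well. Its values are given beside those of the principal fit where it changed the call of a gene named or the count of a list.

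Dlx2 rose in KD and stood alone among the 8 members in passing the adjusted threshold of 0.05 in the principal test. With the replicate block, Dlx1 was also higher and Gad1 was lower. Dlx5, Dlx6, Gad2, Lhx6 and Nkx2-1 passed in neither fit. The members called by edgeR were thus 1 higher and 0 lower of 8, where 12% of all genes tested were higher and 11.9% lower. With the block they were 2 higher and 1 lower, where 18.6% of all genes tested were higher and 18.1% lower. DESeq2 called 2 and 0 members, beside 1429 higher and 1337 lower of 13036 genes. With limma-voom the calls were 1 and 0, beside 1637 and 1614 of 13669 genes. At an unadjusted p under 0.05 edgeR had 2 and 0 members, and the share of all genes at that level is not given here. In bulk RNA, more or fewer cells of a lineage and more or less RNA per cell cannot be told apart.

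**Figure D1:**
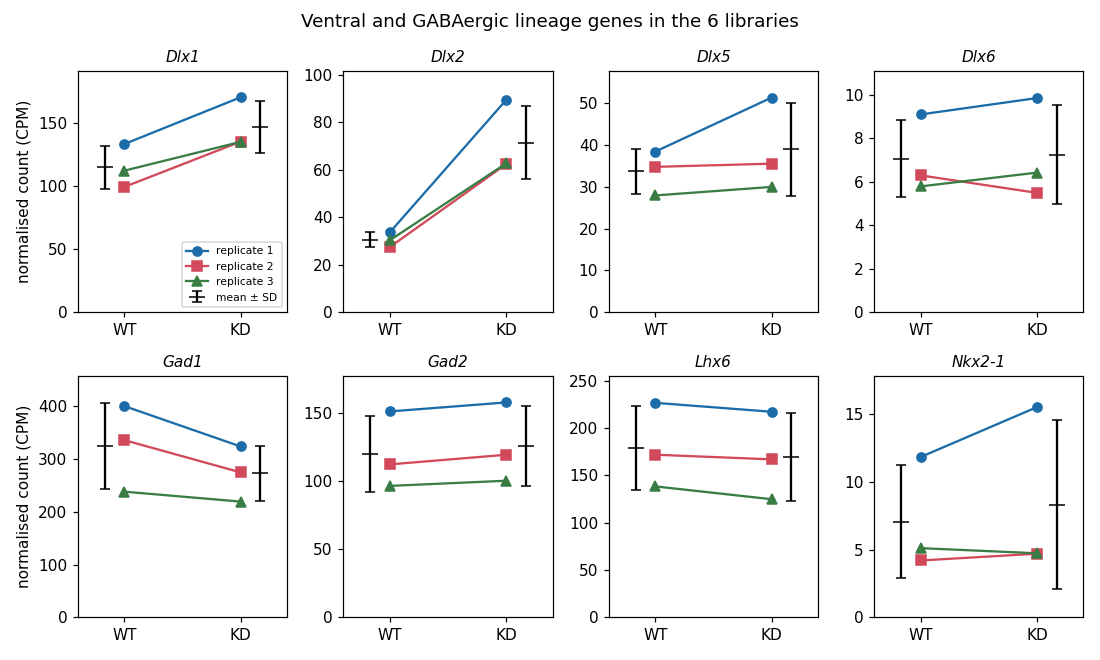
Normalised counts (CPM, vertical axes from 0) of each of the 8 genes in the 3 WT and the 3 KD libraries, with a line joining libraries of the same replicate number and bars for mean ± SD (n = 3). All 3 lines rise for Dlx1, Dlx2, Dlx5 and Gad2 and all 3 fall for Gad1 and Lhx6, and the line of replicate 1 is the highest in every panel.

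Dlx2, whose protein acts in subpallial progenitors, was at 33.7, 27.5 and 30.3 CPM in WT and at 89.4, 62.4 and 62.7 CPM in KD. Every KD library lay above every WT library, and KD replicate 1 was the highest of all. The group means were 30.5 ± 3.11 CPM in WT and 71.5 ± 15.5 CPM in KD (SD, n = 3), a 2.34-fold difference. The log2 fold change was 1.23 (SE 0.14, 95% CI 0.90 to 1.55, adjusted p = 9.59e-04 in edgeR's quasi-likelihood test). Within the replicate numbers the KD to WT ratios were 2.65, 2.27 and 2.07, so replicate 1 showed the largest of the 3.

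Dlx1, the neighbour of Dlx2 and its partner in interneuron differentiation, was at 133, 99.1 and 112 CPM in WT and at 170, 135 and 135 CPM in KD replicates 1, 2 and 3. The groups did not overlap, although KD replicates 2 and 3 lay just above WT replicate 1. The log2 fold change of 0.35 (SE 0.12, 95% CI 0.08 to 0.62) had an adjusted p of 0.0605 in edgeR's quasi-likelihood test, and with the replicate block it was again 0.35 (95% CI 0.25 to 0.46, adjusted p = 1.08e-04). The ratios within replicate numbers were 1.28, 1.36 and 1.20. The whole of Dlx1 lies inside Dlx1as, an antisense gene on the opposite strand that was not analysed here, and whether reads were counted by strand is not given in the sources used here, so reads of the 2 genes cannot be told apart. Dlx1 and Dlx2 were the 2 members of 8 whose KD libraries all lay above the WT libraries, as did 21.0% of all genes tested, and 0 members had all KD libraries below, against 20.6%.

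Dlx5 and Dlx6 act downstream of Dlx1 and Dlx2 in the same lineage. Dlx5 was at 38.5, 34.8 and 28.0 CPM in WT and at 51.4, 35.6 and 30.0 CPM in KD. The groups overlapped, and KD replicate 1 alone lay above all 3 WT libraries. Its log2 fold change was 0.21 (95% CI -0.22 to 0.63, adjusted p = 0.454 in edgeR's test), and 0.19 with the block (95% CI 0.03 to 0.36, adjusted p = 0.0607). Dlx6 was at 9.10, 6.30 and 5.79 CPM in WT and at 9.86, 5.49 and 6.43 CPM in KD. Its groups overlapped throughout, with a log2 fold change of 0.04 (95% CI -0.51 to 0.59, adjusted p = 0.925 in edgeR's test). The interval holds changes in both directions. All of Dlx6 lies inside the antisense gene Dlx6os1, with the same limit on strand as for Dlx1.

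**Figure D2:**
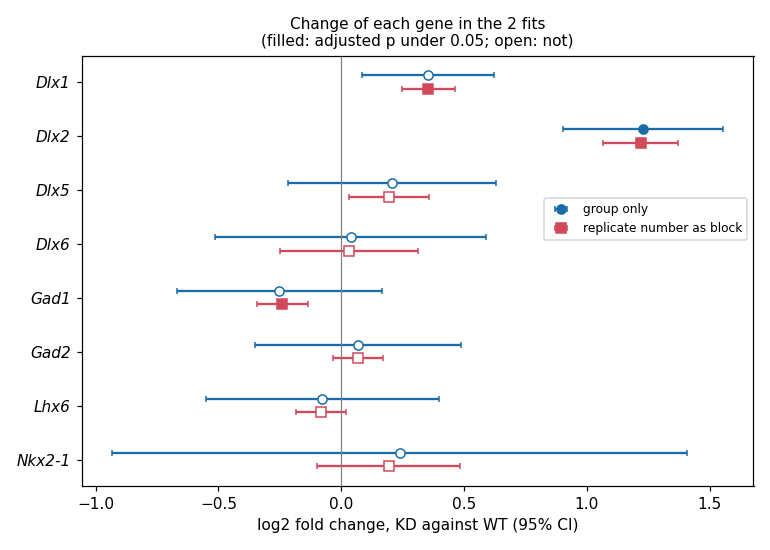
Log2 fold change of KD against WT (horizontal axis) with its 95% CI for each of the 8 genes, from the fit with the group alone (circles) and with the replicate number as a block (squares), filled where the adjusted p was under 0.05. The point estimates hardly move between the fits (0.35 and 0.35 for Dlx1, -0.25 and -0.24 for Gad1), while the intervals are narrower with the block for all 8 genes.

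The medial ganglionic eminence genes gave no call in either fit. Lhx6, a LIM homeobox gene of migrating interneurons that later express somatostatin or parvalbumin, was at 226, 172 and 138 CPM in WT and at 217, 167 and 125 CPM in KD. The order of the replicate numbers was the same in both groups and the groups overlapped. The log2 fold change was -0.08 (95% CI -0.55 to 0.40, adjusted p = 0.821 in edgeR's test), and -0.08 with the block (95% CI -0.18 to 0.02, adjusted p = 0.194). Nkx2-1, the regulator upstream of Lhx6, was the least abundant member on the TPM scale and had 195, 68 and 82 counts in WT and 258, 77 and 78 in KD. These are 11.8, 4.20 and 5.11 CPM against 15.5, 4.70 and 4.73 CPM, so replicate 1 was the highest library of each group, at 2.54 times the mean of the other 2 WT libraries and 3.29 times that of the other 2 KD libraries. The log2 fold change of 0.24 had the widest interval of the members (95% CI -0.93 to 1.41, adjusted p = 0.773), and with the block it was 0.19 (95% CI -0.10 to 0.48, adjusted p = 0.29).

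Of the 2 glutamate decarboxylase genes, Gad1 passed with the block and Gad2 did not, and the difference between them was not tested. Gad1, whose enzyme is spread through the neuron, was at 401, 336 and 238 CPM in WT and at 324, 275 and 220 CPM in KD. The groups overlapped, but each KD library lay below the WT library of the same number, with ratios of 0.81, 0.82 and 0.92. The log2 fold change was -0.25 (SE 0.18, 95% CI -0.67 to 0.16, adjusted p = 0.351 in edgeR's test), whereas with the block it was -0.24 (95% CI -0.34 to -0.13, adjusted p = 0.00165). Gad2, whose enzyme is concentrated at nerve terminals, was at 151, 112 and 96.7 CPM in WT and at 158, 120 and 100.4 CPM in KD. Its ratios within replicate numbers were 1.04, 1.06 and 1.04, and the log2 fold change was 0.07 (95% CI -0.35 to 0.49, adjusted p = 0.821), or 0.07 with the block (95% CI -0.03 to 0.17, adjusted p = 0.288).

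Levels can be compared between genes on the deposited TPM scale, which divides by transcript length. In WT, Gad1 was the most abundant member at a mean of 223 TPM, followed by Lhx6 at 115, Dlx1 at 87.2, Dlx5 at 60.3, Gad2 at 44.8, Dlx2 at 27.8, Dlx6 at 18.1 and Nkx2-1 at 6.15 TPM. The ranges of Lhx6 and Dlx1 overlapped, as did those of Dlx5 and Gad2, while the other neighbours in this order did not. In KD, Gad1 was again first at 195 TPM, Dlx1 (116) and Lhx6 (115) had nearly equal means, and Dlx2 at 67.6 TPM stood above Gad2 at 48.8 TPM. Summed over the 8 members, TPM was 710, 558 and 478 in WT and 799, 614 and 514 in KD, so the groups overlapped and KD was higher within each replicate number. The log2 ratio of the group means was 0.14. It was -0.04 without KD replicate 1 alone, and 0.12 without both libraries of replicate 1.

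Ratios of related genes within a library do not depend on library size, and they were picked after the values had been seen, so they are given with no test. The TPM ratio of Dlx2 to Dlx1 was 0.304, 0.333 and 0.323 in WT and 0.629, 0.548 and 0.554 in KD. Relative to its neighbour, Dlx2 was thus higher in every KD library than in any WT library. The ratio of Dlx5 to Dlx6 overlapped between the groups, from 2.95 to 3.87 in WT and from 3.25 to 4.54 in KD. The ratio of Gad1 to Gad2 was 4.87, 5.50 and 4.54 in WT and 3.77, 4.27 and 4.05 in KD, lower in every KD library.

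**Figure D3:**
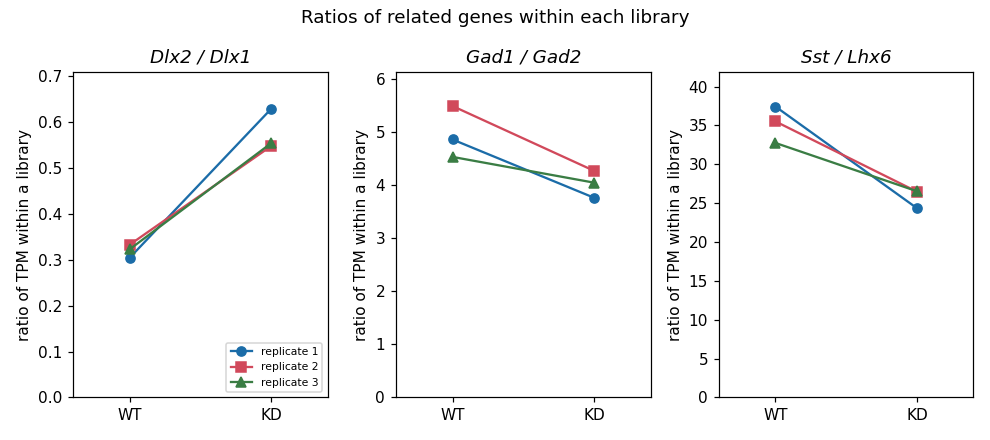
Ratio of TPM values within each library (vertical axes from 0) for Dlx2 to Dlx1, Gad1 to Gad2, and Sst, the somatostatin gene, to Lhx6, with a line for each replicate number. The groups do not overlap in any of the 3 panels, with mean ratios of 0.32 in WT and 0.58 in KD for Dlx2 to Dlx1 and of 4.97 and 4.03 for Gad1 to Gad2.

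Within both groups the 8 members followed the replicate number. Replicate 1 was the highest WT library and the highest KD library for 8 of 8 members, whereas this held for 2374 of the 13669 genes tested (17.4%). For Dlx5, Gad1, Gad2 and Lhx6, replicate 3 was the lowest library in both groups as well. Among the other ventral transcription factor genes, replicate 1 was the highest in both groups for 12 of 25 tested and the lowest in both for 3. These counts were 3 and 0 of 6 for genes of GABA synthesis and transport. For genes of interneuron subtype and migration they were 11 and 2 of 20. One of the 12 was Lhx8, a further gene of the medial ganglionic eminence. It was at 14.4, 4.63 and 5.04 CPM in WT and at 15.1, 5.19 and 5.21 CPM in KD, close to the pattern of Nkx2-1. Of the 13 pallial genes tested, replicate 1 was the highest library in both groups for 3 and the lowest in both for 7. Neurod6, one of the 7, was at 114, 182 and 194 CPM in WT and at 185, 277 and 304 CPM in KD. The labels do not say what a replicate number marks, and whether the share of subpallial cells differed between replicates was not tested.

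**Figure D4:**
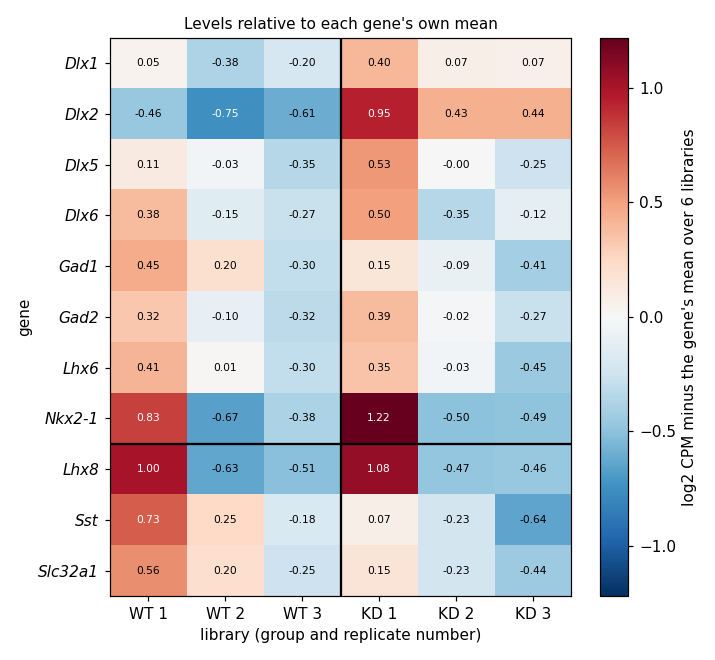
Log2 CPM minus each gene's mean over the 6 libraries (colour and printed value) for the 8 members, above the line, and for Lhx8, Sst and Slc32a1, below it. Columns WT 1 and KD 1 are the highest of their groups in every row, and in the Dlx2 row all WT values are below and all KD values above the gene's mean. The genes below the line are examples and do not stand for their whole lists.

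Of the other ventral transcription factor genes, 25 of 28 listed were tested, and 10 were higher, 0 lower and 15 did not pass, with a median log2 fold change of 0.30 against -0.00131 for all genes tested. With the block, 18 were higher and 1 lower, and in the principal fit 1 was lower at an unadjusted p under 0.05, as with DESeq2. Vax1, a homeobox gene of the basal forebrain, was at 4.43, 3.02 and 5.54 CPM in WT and at 14.1, 8.05 and 10.1 CPM in KD (log2 fold change 1.31, adjusted p = 0.00752 in edgeR's test). Gsx2, which patterns the lateral ganglionic eminence and acts upstream of the DLX genes, was at 2.91, 3.46 and 3.36 CPM in WT and at 7.93, 4.33 and 5.46 CPM in KD (0.86, adjusted p = 0.0258). The call of Gsx2 was lost without KD replicate 1 (0.59) and without WT replicate 1, 2 or 3 (0.79 to 0.91). Pou3f4, a POU domain factor of the embryonic forebrain, went from 23.8 ± 2.96 to 41.4 ± 8.08 CPM (0.80, adjusted p = 0.00514).

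Of the 7 listed genes of GABA synthesis and transport beside the members, 6 were tested, 0 were higher and 1 was lower, and 5 did not pass. With the block 4 were lower and 0 higher. At an unadjusted p under 0.05 edgeR had 2 lower and 0 higher, DESeq2 and limma-voom had 1 lower and 0 higher, and the median log2 fold change was -0.28. Aldh5a1, which completes GABA breakdown, was at 53.5, 53.7 and 46.0 CPM in WT and at 37.7, 38.2 and 41.1 CPM in KD (log2 fold change -0.39, adjusted p = 0.00722 in edgeR's test). Slc32a1, the vesicular GABA transporter, was singled out after its values were seen. It was at 189, 148 and 108 CPM in WT and at 143, 110 and 94.2 CPM in KD (-0.36, adjusted p = 0.22, and 2.3e-04 with the block). It was lower in KD within each replicate number, and the groups overlapped.

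Genes of interneuron subtypes and migration split in direction, with 5 higher, 3 lower and 12 not past the threshold of 20 tested, and 9 higher and 8 lower with the block. Htr3a, a serotonin receptor gene of interneurons from the caudal eminence, rose from 2.49 ± 0.59 to 5.80 ± 0.54 CPM (log2 fold change 1.22, adjusted p = 0.0033 in edgeR's test). Nrp1, a semaphorin receptor gene, rose from 29.5 ± 4.64 to 45.0 ± 2.24 CPM (0.61, adjusted p = 0.00426), and Nos1, the neuronal nitric oxide synthase gene, from 39.4 ± 10.7 to 57.8 ± 6.98 CPM (0.55, adjusted p = 0.0421). The Nos1 groups overlapped, and its call was lost without WT replicate 1 or 2 and without KD replicate 2 or 3, between 0.41 and 0.54.

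The lower genes of this list were Nxph1, Calb1 and Erbb4. Nxph1, a neurexin ligand of interneurons, was at 142, 133 and 90.3 CPM in WT and at 69.6, 80.2 and 56.2 CPM in KD (log2 fold change -0.83, adjusted p = 0.0103 in edgeR's test). Calb1, a calcium-binding protein, fell from 83.7 ± 14.6 to 49.3 ± 3.22 CPM (-0.76, adjusted p = 0.00254), and Erbb4, the neuregulin receptor of migrating interneurons, from 169 ± 19.7 to 114 ± 16.7 CPM (-0.56, adjusted p = 0.00882). For all 3 genes the KD libraries were below the WT libraries without overlap. Sst, the somatostatin gene was at 852, 608 and 452 CPM in WT and at 537, 438 and 328 CPM in KD (-0.55, adjusted p = 0.108, and 2.35e-06 with the block). Its TPM ratio to Lhx6 was 37.4, 35.5 and 32.7 in WT and 24.4, 26.5 and 26.5 in KD, with no overlap. Sst was chosen for mention after its values were seen.

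**Figure D5:**
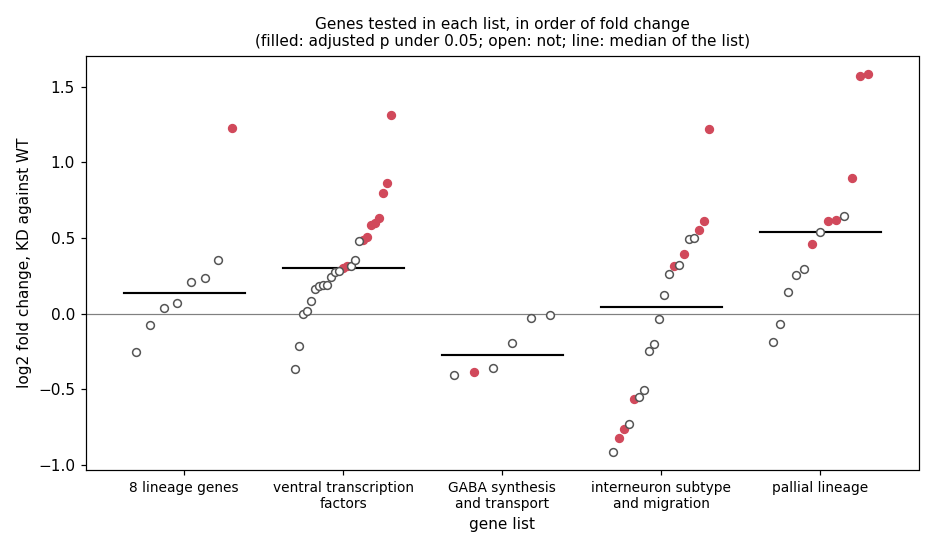
Log2 fold change of KD against WT (vertical axis) of each gene tested in 5 lists, in order of size within a list, filled where the adjusted p was under 0.05, with a line at the list's median. The medians are 0.14 for the 8 members, 0.30 for ventral transcription factors, -0.28 for GABA synthesis and transport, 0.04 for interneuron subtype and migration and 0.54 for pallial lineage genes.

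Over these 3 lists together, 51 genes were tested, 15 were higher and 4 lower, and with the block 27 and 13. Without both libraries of replicate 2, 1 gene was higher and 0 were lower, while the counts over all genes fell to 135 and 93. Without both libraries of replicate 1, 13 of these genes were higher and 6 lower. Of the pallial lineage genes, 6 of 13 tested were higher and 0 lower, and 9 higher and 1 lower with the block. The log2 fold change was above 0 for 11 of the 13. It was below 0 for Slc17a6 (-0.19), the gene lower with the block, and for Slc17a7 (-0.07). At an unadjusted p under 0.05 edgeR had 7 higher and 0 lower, and DESeq2 and limma-voom had 6 and 0. Their summed TPM ranged from 614 to 889 in WT and from 943 to 1160 in KD, without overlap. Neurog2 (log2 fold change 1.58), Eomes (1.57) and Neurod1 (0.90), which act in excitatory progenitors and their young neurons, led this list, and Dlx2 at 1.23 lay among them. Of the 6 oligodendrocyte lineage genes, which arise in part from the same ventral progenitors, 1 was lower and 0 were higher, and 3 were lower with the block (0 higher at an unadjusted p under 0.05 in edgeR and with DESeq2 or limma-voom). Their summed TPM ranged from 322 to 428 in WT and from 277 to 347 in KD. The part that a changed mix of cell types had in the result for Dlx2 was not tested.

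The genes most like the members in pattern were Rbms1, Pbx3, Pmf1, Ttk and Zfp503. Likeness was the root mean square difference, over the 6 libraries, between a gene's centred log2 CPM and the mean centred profile of the 8 members, among 11431 other genes with a mean of at least 5 CPM. The differences ranged from 0.0727 for Rbms1 to 0.0960 for Zfp503. Of the members themselves, Gad2 (0.0987) and Dlx5 (0.108) lay closest to the mean profile, and Dlx2 (0.522) and Nkx2-1 (0.444) lay farthest from it. With 6 libraries this is a description of these samples. The mean profile of the members was highest in replicate 1 of both groups. That all 5 genes had replicate 1 as the highest library in both groups follows from how they were picked.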

How the data were processed

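RNA-seq of 3 WT and 3 KD libraries was analysed, with groups and replicate numbers from the sample titles. Controls are headed Ctrl in the data and were matched to the WT titles by number. The authors purified mRNA, sequenced it on the DNBSEQ platform and deposited estimated counts and TPM per gene. The submitters' processing notes name HISAT2 2.2.1, Bowtie2 2.4.5, RSEM 1.3.1 and the builds GRCm38 and mm10. Of the deposited columns, 6 of FPKM and 6 of group averages were not used.

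Estimated counts were rounded and tested in R 4.3.3 with edgeR 4.0.16 (TMM scaling, filterByExpr with a minimum count of 10, two-sided quasi-likelihood F-test for KD relative to WT, Benjamini-Hochberg adjustment over 13669 genes, threshold 0.05). The SE was taken as the size of the log2 fold change over the square root of F, and intervals are 95% CIs. CPM used TMM-scaled totals. The estimated counts of all 8 members were whole numbers, while between 89.3% and 89.9% of values in a library were. Replicates of a group differed by 4.59 to 9.05 chi-square units per degree of freedom, so none were merged. The labels do not say what a replicate number marks or whether the libraries came from separate cultures, so p-values measure the spread between these libraries. Since all same-number correlations exceeded 0.1, the numbers were taken to pair the libraries, and the blocked fit was run beside the principal one.

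Alternatives used limma 3.58.1 (limma-voom, and limma-trend on log2(TPM + 1)), DESeq2 1.42.0, other scalings, filters and thresholds, and leaving out libraries. The principal fit, the blocked fit, DESeq2, limma-voom and limma-trend were also run on simulated counts. These counts had a common dispersion for all genes and no replicate effect, unlike the data. For limma-trend they were scaled to library size and not to TPM. The other alternatives were not simulated. Members, lists and tests were chosen with earlier results of these data known. By the naming rule, named genes are the members, Ybx1, up to 3 genes in each direction per list, by size, among called genes averaging 1 CPM or more, and the 5 genes most like the members. Lhx8, Neurod6, Slc17a6, Slc17a7, Ttr, Slc32a1 and Sst are named outside this rule. Some listed genes are not reported here by name. Gene positions are from GENCODE and promoter windows from RefSeq.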

Additional observations from a re-analysis of the deposited data

How the results depend on the processing

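Dlx2 passed the threshold in each of 17 alternatives (log2 fold change 1.04 to 1.32). The count of higher members was 2 in place of 1, through Dlx1, without a filter on low counts, with DESeq2 and with limma-trend on TPM. It was also 2 with the replicate block and without both libraries of replicate 1 (chosen after seeing the data). When single libraries were left out, it ranged from 1 to 2 (without WT replicate 1). Over all genes, 1625 of 17893 were higher without the filter, 1429 of 13036 with DESeq2 and 2076 of 13669 with limma-trend. These numbers were 2539 of 13669 with the block, 1025 of 13690 without both libraries of replicate 1 and 1151 of 13786 without WT replicate 1. With the block, which narrowed the intervals by pairing libraries of like number, 1 member (Gad1) and 1 pallial gene were lower in place of 0, and the other ventral and interneuron genes gave 27 higher and 13 lower in place of 15 and 4. Beside Dlx1 and Gad1, the block changed the call of no member. Without both libraries of replicate 2, these counts fell to 1 higher and 0 lower and the pallial count from 6 to 1 higher, as calls over all genes fell to 135 higher and 93 lower. At an adjusted p of 0.01, they were 8 and 3 higher, and DESeq2 gave 7 lower. Leaving out single libraries gave between 9 (without WT replicate 2) and 16 higher and between 4 and 9 (without WT replicate 3) lower.

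The members' median log2 fold change of 0.14 ranged from -0.19 (without KD replicate 1) to 0.29, and was -0.00326 and -0.00695 without WT replicate 2 and without WT replicate 3, in that order, but 0.04 without both libraries of replicate 1. The log2 ratio of summed TPM ranged from -0.045 to 0.31, and was 0.12 without both libraries of replicate 1. For members that passed no test, the sign turned as well when a library was left out. Their log2 fold changes ranged from -0.042 to 0.37 for Dlx5, from -0.25 to 0.26 for Dlx6 (-0.019 without both replicate 1 libraries), from -0.13 to 0.27 for Gad2, from -0.29 to 0.13 for Lhx6 and from -0.58 to 0.84 for Nkx2-1. The cause was not tested. Over all genes, limma-trend on TPM called 2076 higher and 1072 lower, in place of 1646 and 1631. With 3 libraries a group and Nkx2-1 at 68 to 258 counts, a member without a call may still have changed by an amount within its printed interval.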

Other observations

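Outside the interneuron lineage, Olig1, a transcription factor gene of the oligodendrocyte lineage, fell from 197 ± 27.6 to 135 ± 16.6 CPM (log2 fold change -0.54, adjusted p = 0.0105 in edgeR's test), with every KD library below every WT library. Otx2, a homeobox gene of the choroid plexus, midbrain and other regions, was at 1.88, 0.370 and 0.249 CPM in WT and at 7.51, 2.62 and 3.21 CPM in KD (2.40, adjusted p = 0.0257), and the call was lost without KD replicate 1, without WT replicate 2 or 3, and with DESeq2. The remaining 3 choroid plexus markers had counts too low to test. Pdgfrb, a receptor gene of mural cells, was at 4.49, 4.63 and 7.41 CPM in WT and at 9.50, 7.81 and 9.94 CPM in KD (0.72, adjusted p = 0.0318), and its call was lost without any single library except WT replicate 3. Of the 5 astrocyte genes tested, 0 passed the threshold in edgeR with or without the replicate block, 0 had an unadjusted p under 0.05, and 0 passed with DESeq2 or limma-voom.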
